A study of Mus musculus with 2 samples.

Results

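Ebf-positive amacrine cells of the postnatal day 7 mouse retina were described in 2 single-cell RNA libraries, 1 from control retinas and 1 from retinas in which Mettl14 was deleted under a Chx10 driver. The cells were chosen by a count rule on each barcode. A barcode needed at least 1000 unique molecular identifiers (UMIs, one per captured RNA molecule), at least 500 genes and at most 15% mitochondrial UMIs. It also needed at least 2 UMIs summed over Ebf1 and Ebf3, at least 1 UMI of Tfap2b, Tfap2c, Slc6a9 or Pax6, and none of Rbpms, Pou4f1, Pou4f2, Gad1, Cldn5 or Pdgfrb. The rule found 934 barcodes among 24841 kept: 634 of 11361 in the control library and 300 of 13480 in the Mettl14-cKO library. Because these genes chose the cells, their own levels are given only as a description.

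The control animals were Mettl14 fl/fl or fl/wt with no Cre in the label. The Mettl14-cKO animals were Mettl14 fl/fl;Chx10-Egfp/Cre. The floxed allele is therefore present in both groups, and the controls may mix homozygous and heterozygous animals. The Chx10 promoter drives the EGFP/Cre fusion in retinal progenitors and later in bipolar cells, and this driver is known to act in a mosaic of progenitors. The number of animals per library and their sex were not given in the sources used here. Each genotype had 1 library, so no difference between genotypes could be tested. All intervals below are exact 95% intervals that cover counting error only.

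Amacrine cells are the inhibitory interneurons of the inner retina. Most use GABA or glycine, and transcription factors of the Ebf, Tfap2, Prdm and Nhlh families divide them into types. Ebf1 and Ebf3 mark a set of mostly glycinergic and non-GABAergic types, and Prdm13 acts downstream of Ptf1a in the choice of amacrine fate. Mettl14 is the RNA-binding partner of Mettl3 in the complex that writes N6-methyladenosine (m6A) on messenger RNA.

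The 2 libraries held 55921787 and 59856468 UMIs, with a median of 3493 and 3213 per kept barcode in the control and Mettl14-cKO library. They shared 39 kept barcode sequences, of which 3 were members in the control library and 1 in the Mettl14-cKO library. Members had a median of 3360.5 UMIs in the control library and 3028 in the Mettl14-cKO library. Rods, which serve below as the class that should lack amacrine RNA, had medians of 2003 and 2135.5 UMIs. Scrublet called 94 control members (14.8%) and 62 Mettl14-cKO members (20.7%) doublets, against 6.92% and 11.98% of all kept barcodes.

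The label held for most members by genes the rule did not use. Prdm13 was found in 70.8% of control members (67.1–74.3) and 60.3% of Mettl14-cKO members (54.5–65.9), but in 1.81% and 1.08% of rods. Nhlh2, a basic helix-loop-helix factor of differentiating neurons, was found in 79.3% (76.0–82.4) and 66.3% (60.7–71.7) of members, and in 3.10% and 2.38% of rods. Both genes together were present in 386 control and 137 Mettl14-cKO members, and neither was present in 68 and 57. Slc6a9, the glycine transporter GlyT1 and one of the genes by which a barcode could enter the rule, was found in 31.9% and 25.3% of members. Pax6 was the only second amacrine gene in 265 control members (41.8%) and 136 Mettl14-cKO members (45.3%).

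The rule also admitted barcodes that carried RNA of other retinal classes. Otx2, a photoreceptor and bipolar factor, was present in 26.7% of control members and 35.3% of Mettl14-cKO members. Rlbp1, a retinaldehyde-binding protein of Müller glia, was present in 11.5% and 11.7%. All 7 rod markers had UMIs in both sets of members, and their summed level was 5645 CPM (UMIs scaled to a total of 1000000) in control members and 2326 CPM in Mettl14-cKO members. The same markers summed to 27586 and 19230 CPM in rods. The 3 endothelial markers were at 0 in both sets. A narrower set of members was therefore carried beside the full set for the share of barcodes, the leading genes and some of the lists. It is not given for the marker shares or for every list. These restricted members had no UMI of a set of bipolar, photoreceptor and glial genes that included Otx2 and Rlbp1, at most 10 UMIs of Gngt1 and no doublet call, and numbered 346 (control) and 151 (Mettl14-cKO). Their rod markers still summed to 899 and 502 CPM.

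**Figure D1:**
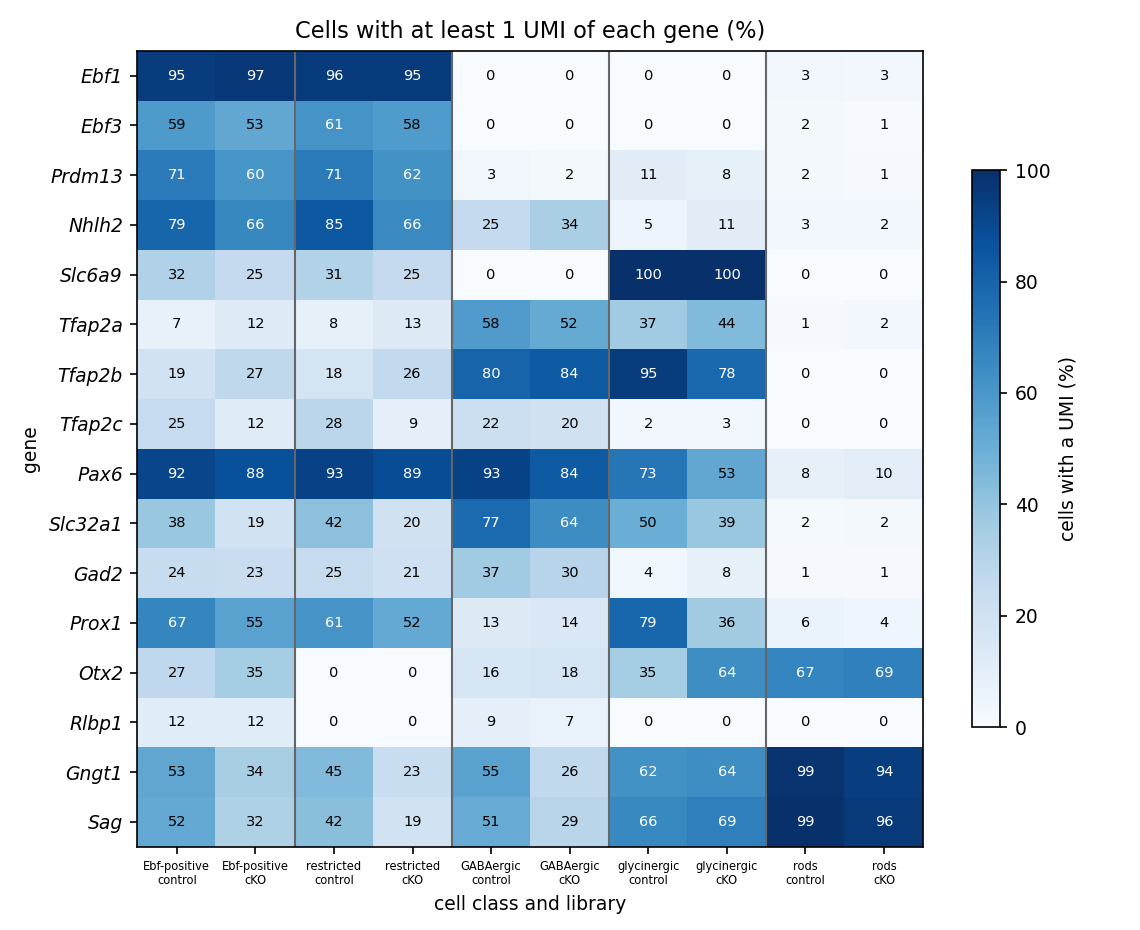
Percent of cells with at least 1 UMI of each gene (rows) in each cell class and library (columns); the color scale runs from 0 to 100%. Ebf1, Ebf3, Slc6a9, the Tfap2 genes and Pax6 helped to choose the classes; Prdm13 and Nhlh2 did not, and both are frequent in the Ebf-positive columns and at most 3.10% in rods.

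Barcodes just outside the Ebf threshold differed from members. Those with 1 Ebf UMI numbered 269 in the control library and 243 in the Mettl14-cKO library, and Prdm13 was found in 32.7% and 14.4% of them. Among members with exactly 2 Ebf UMIs, Prdm13 was found in 64.7% of 170 cells (control) and 43.9% of 66 (Mettl14-cKO). With 4 or more Ebf UMIs the shares were 74.1% of 324 and 67.8% of 171.

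Ebf-positive amacrine cells made up 5.58% of kept barcodes in the control library (5.17–6.02) and 2.23% in the Mettl14-cKO library (1.98–2.49). The ratio of the shares was 0.399 (0.346–0.458). After every barcode was thinned to 1500 UMIs, the shares were 2.63% and 1.19%, with a ratio of 0.452 (0.366–0.557). Restricted members made up 3.05% and 1.12% of kept barcodes, with a ratio of 0.368 (0.302–0.447). Shares of all barcodes depend on the other cell types, and rods by their own rule were 23.9% and 13.7% of the barcodes. Some members also met the rod rule. Over barcodes that were not rods, members numbered 610 of 8650 (7.05%) and 297 of 11632 (2.55%).

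Other amacrine cells allowed a comparison that does not depend on rods. GABAergic amacrine cells, with at least 2 UMIs of Gad1 and a UMI of a Tfap2 gene, numbered 287 and 297. They were 2.53% (2.24–2.83) and 2.20% (1.96–2.46) of barcodes. Glycinergic cells without Ebf UMIs, with at least 2 UMIs of Slc6a9 and a UMI of a Tfap2 gene, numbered 82 and 36, or 0.722% and 0.267%. The ratio of shares was 0.872 (0.739–1.029) for GABAergic cells and 0.370 (0.243–0.554) for these glycinergic cells. The glycinergic ratio was close to the 0.399 (0.346–0.458) of members, so by these rules a lower share was not particular to Ebf-positive cells. After thinning, the glycinergic ratio was 0.209 (0.0614–0.575), from only 20 and 5 cells. The thinned ratio was 0.452 for members and 0.9285 (0.634–1.362) for GABAergic cells. The glycinergic share depends on the level of Slc6a9. Slc6a9 was found in 31.25% and 15.4% of barcodes that lacked Ebf UMIs but met the other gene conditions of the member rule. Members were 63.2% (60.1–66.2) of the 1003 barcodes in these amacrine classes in the control library and 47.4% (43.4–51.4) of 633 in the Mettl14-cKO library. The 2 intervals did not overlap. With 1 library a genotype, the difference cannot be told apart from a difference between the 2 preparations.

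**Figure D2:**
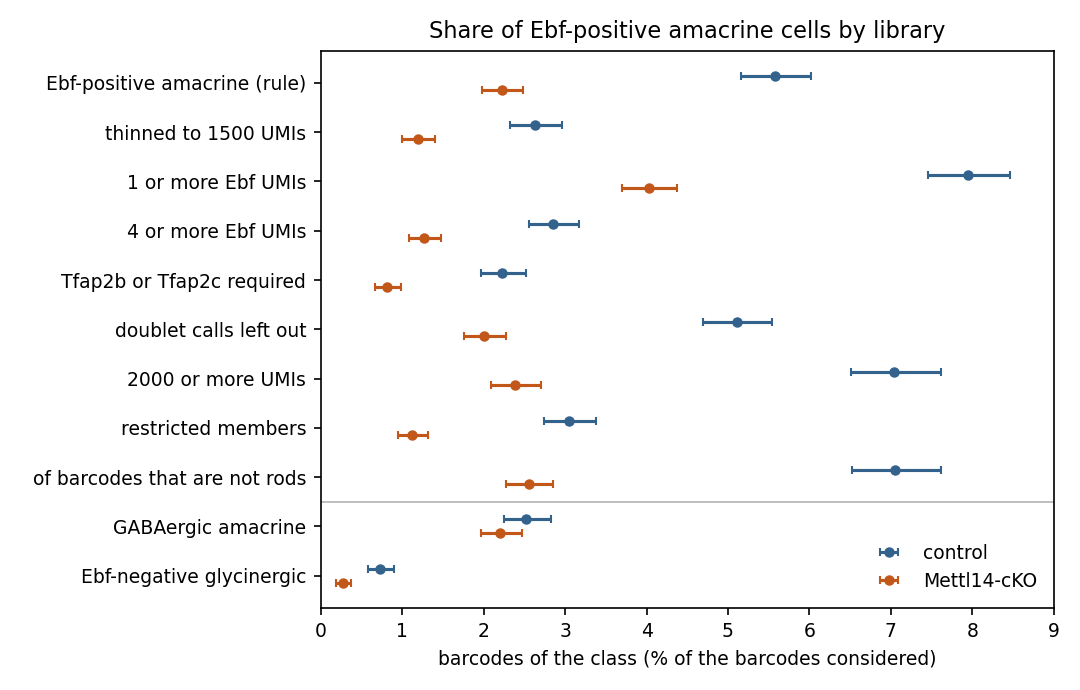
Share of barcodes in each class (x axis, percent of the barcodes considered) in the control and Mettl14-cKO libraries, for the rule, for 8 other settings and for 2 other amacrine classes; bars are exact 95% binomial intervals for counting error. The Mettl14-cKO point lies below the control point in every Ebf-positive row, from 2.23% against 5.58% under the rule, and the intervals overlap only for GABAergic amacrine cells.

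Members were not a single uniform population. Ebf1 alone was detected in 261 control members (41.2%) and 141 Mettl14-cKO members (47.0%), Ebf3 alone in 32 (5.05%) and 10 (3.33%), and both in 341 (53.8%) and 149 (49.7%). Ebf1 stood at 695 CPM (665–727) in control and 913 CPM (860–968) in Mettl14-cKO members. Ebf3 stood at 253 CPM (235–272) and 226 CPM (200–254).

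Members of each library were clustered separately, with no comparison of cluster sizes between genotypes, since the defining genes themselves differed. The 634 control members formed 9 clusters. Cluster 2, with 160 cells, was led by Necab2, Igf1, Fjx1 and Tfap2c, and Tfap2c was found in 60.6% of its cells. Cluster 1, with 136 cells, was led by Cntn6, Nefh and Kcnd3. Cntn6 and Kcnd3 were found in 40.4% and 43.4% of its cells, but Nefh in only 2.94%. Cluster 0, with 55 cells, was led by Nrgn, Robo3 and Lamp5, and cluster 5, with 48 cells, by Mafa and the glycine receptor gene Glra3. Cluster 6, with 22 cells, was led by Crabp1 and held Ppp1r17 in 59.1% and Neurod6 in 36.4% of its cells, while Slc6a9 was found in none. Cluster 8, the smallest with 12 cells, was led by Ly6h and held Ppp1r17 in 66.7% and Slc6a9 in 58.3% of its cells, with Neurod6 in none. Ppp1r17 was thus frequent in both of these small clusters, which differed in Slc6a9. How often the 2 genes share a cell was not counted. Both Ppp1r17 and Neurod6 are known markers of amacrine cells that are neither GABAergic nor glycinergic.

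Control clusters 3, 4 and 7 stood apart from these. Cluster 3 (69 cells) was led by bipolar genes such as Vsx1, Grm6 and Cabp5, cluster 4 (89 cells) by rod genes such as Gngt1 and Sag, and cluster 7 (43 cells) by Apoe and Rlbp1. Their doublet calls were 37.7%, 64.0% and 18.6% of cells, against none in clusters 1 and 2. Of their cells, 2, 6 and 21 stayed among the restricted members. Prdm13 was still found in 65.2%, 62.9% and 74.4% of them.

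The 300 Mettl14-cKO members formed 6 clusters. Cluster 0, with 82 cells, was led by Nfix, Igfbpl1 and Pxylp1. Cluster 1, with 72 cells, was led by Igfbp5, Ppp1r17 and Lrfn5, and Ppp1r17 was found in 52.8% of its cells. Cluster 3, with 50 cells, was led by Snhg11 and Lamp5. Cluster 2 (40 cells) was led by bipolar genes, cluster 5 (32 cells) by rod genes and cluster 4 (24 cells) by Hes1, Vim and Crip1, and their doublet calls were 37.5%, 78.1% and 66.7%. Crip1 was found in only 16.7% of the cells of cluster 4. None of the clusters was given a cell type name.

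Subset markers were compared between libraries as the share of members with a UMI. Tfap2c was found in 24.9% of control members (21.6–28.5) and 12% of Mettl14-cKO members (8.55–16.2), and in 14.4% and 6.30% after thinning to 1500 UMIs. Neurod6 was found in 4.10% (2.70–5.95) and 16.0% (12.04–20.6), and in 2.10% and 10.7% after thinning. Ppp1r17 was found in 8.52% (6.46–11.0) and 21.3% (16.8–26.4), and in 3.56% and 13.3% after thinning. In rods neither Neurod6 nor Ppp1r17 exceeded 0.516%. So Tfap2c marked a smaller, and Neurod6 and Ppp1r17 a larger, share of the members of the Mettl14-cKO library, with intervals that did not overlap before or after thinning. Tfap2c is also one of the genes by which a barcode could enter the rule. Neurod2 is the remaining marker listed for amacrine cells that are neither GABAergic nor glycinergic. By the CPM rule given below, 2 of these 3 markers were called higher in Mettl14-cKO members (66.7%, beside 6.39% of all genes). Neurod2 was not called, so the list did not move as a whole.

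Markers known from AII amacrine cells, the glycinergic interneurons of the rod pathway, were also counted. Of the 4 listed, Prox1, Gjd2, Dab1 and Car2, only Prox1 was called by the CPM rule given below. It was lower in Mettl14-cKO members (25%, beside 5.88% of all genes). Shares of cells are given for Prox1 and Dab1 only. Prox1 was present in 67.0% (63.2–70.7) and 55.3% (49.5–61.0) of members, control first, and Dab1, an adaptor of Reelin signaling, in 40.4% (36.5–44.3) and 28.3% (23.3–33.8). After thinning the shares were 40.9% and 33.7% for Prox1 and 18.4% and 12.6% for Dab1, with overlapping intervals.

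**Figure D3:**
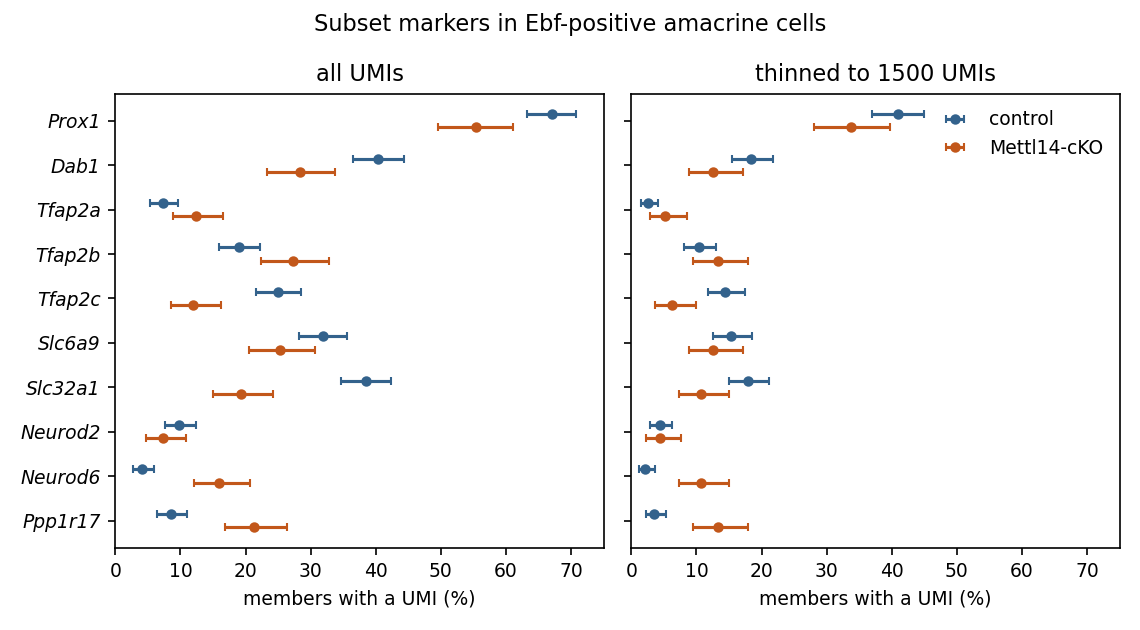
Percent of Ebf-positive amacrine cells with at least 1 UMI of each subset marker (x axis) in the control and Mettl14-cKO libraries, from all UMIs (left) and after thinning each cell to 1500 UMIs (right); bars are exact 95% binomial intervals. Neurod6 and Ppp1r17 lie higher in the Mettl14-cKO library, at 16.0% and 21.3%, and Tfap2c lower, at 12%, in both panels. Neurod2, listed with Neurod6 and Ppp1r17, was not called by its CPM.

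Within each library, members differed from GABAergic amacrine cells. A gene was called here when its CPM differed at least 2-fold in the same direction in both libraries, with exact Poisson intervals that did not overlap in either. Of 8439 genes with at least 100 UMIs, 237 were called higher in members (2.81%) and 422 lower (5.0%). Lgr5, an R-spondin receptor of the Wnt pathway, stood at 126 CPM in members and 1.75 CPM in GABAergic cells of the control library, and at 126 and 1.14 CPM in the Mettl14-cKO library. Prdm13 stood at 325 against 9.34 CPM and at 306 against 3.42 CPM. Nfix, a nuclear factor I transcription factor, stood at 1051 against 13.4 CPM in the control library and at 438 against 25.7 CPM in the Mettl14-cKO library. Its relative Nfib stood at 445 against 15.8 CPM and 389 against 32.5 CPM.

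Other genes high in members were Igfbpl1, Klhl35, Robo3, Insc, Ppp1r17, Krt24, Spsb4 and Mgl2. Robo3, an axon guidance receptor, had no UMI in control GABAergic cells, and its 52.2 CPM in control members gave a log2 ratio of at least 4.90 against a floor of 3 UMIs. The genes lower in members were led by Lhx1, Crybb3, Cartpt, Tac1, Lhx1os and Npy. Neuropeptide genes were among them. Cartpt was at 10.4 CPM in control members and 3517 CPM in control GABAergic cells, and Tac1, the substance P precursor, at 2.42 and 282 CPM. Npy was at 25.2 and 886 CPM, and rods held it at 32.4 CPM. C1ql1, a secreted C1q-related protein, was at 5.19 against 1099 CPM. All 24 of these leading genes were also called in the same direction in the restricted members of both libraries. Restricted members are part of the same barcodes, so this is no independent support.

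The promoters of the leading genes were searched for the palindromic site that Ebf proteins are known to bind, TCCCNNGGGA, which reads the same on both strands. RefSeq promoters on GRCm38.p6, from 250 bases before to 50 after each start, were matched for 8 of the 12 genes highest in members, and 1 of them, Robo3, held the site. None of 11 matched promoters of the 12 lowest genes held it, and 297 of all 32851 promoters did (0.904%). The Robo3 promoter (chr9:37433126-37433425, minus strand) is shown with the site in capitals, since it is the only match among these genes.
Robo3: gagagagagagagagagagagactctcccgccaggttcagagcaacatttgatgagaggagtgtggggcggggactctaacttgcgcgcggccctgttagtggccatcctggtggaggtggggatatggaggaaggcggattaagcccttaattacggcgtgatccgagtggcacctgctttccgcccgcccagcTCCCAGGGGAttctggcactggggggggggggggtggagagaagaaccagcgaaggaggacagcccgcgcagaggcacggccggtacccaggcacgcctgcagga
The site starts 55 bases before the gene's start. A match of letters is no evidence of binding, and 8 promoters are too few to compare with the share of all promoters.

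Against the Ebf-negative glycinergic cells, 242 of 7138 genes were called higher in members (3.39%) and 243 lower (3.4%). Nhlh2 led at 671 against 17.3 CPM (control) and 456 against 12.1 CPM (Mettl14-cKO). Crabp1, a cellular retinoic acid-binding protein, stood at 700 against 26.0 CPM and 852 against 48.4 CPM. Klhl35, Prdm13 and Nfix, which were high against GABAergic cells, were again among the 12 highest genes. Cacna2d3, a calcium channel subunit, stood at 169 against 7.21 CPM and 64.0 against 3.02 CPM. Of the 12 highest genes, Vsx1 was not called in restricted members. The lowest genes began with Unc13d, Actc1, Akain1 and Sct, the secretin gene. Sct was at 4.50 against 98.1 CPM in the control library and 6.48 against 51.4 CPM in the Mettl14-cKO library. This comparison class had 82 and 36 cells with rod markers summing to 15031 and 15360 CPM. Rod-abundant genes such as Casz1 were among its 12 lowest. The part of rod RNA in that contrast was not tested.

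The targeted gene was compared first between genotypes. Mettl14 (ENSMUSG00000028114, chr3:123368297-123386108, GRCm38, minus strand) had 63 UMIs in control members and 12 in Mettl14-cKO members, or 21.8 CPM (16.7–27.9) and 9.72 CPM (5.02–17.0). The ratio was 0.446 (0.219–0.835), and the intervals of the 2 levels touched. In GABAergic cells it stood at 21.01 and 8.56 CPM. The restricted members held 15 UMIs and 1 UMI. Mettl3, its catalytic partner, was at 23.9 and 23.5 CPM. The floxed exons were not given in the sources used here, and 3-prime counts can include transcripts that lost them.

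For all genes, the Mettl14-cKO over control ratio of CPM was taken over the summed UMIs of the members. A gene was called when the ratio was at least 1.5-fold from 1 and the exact Poisson intervals did not overlap. Of 9987 genes with at least 30 UMIs, 638 were called higher (6.39%) and 587 lower (5.88%) in Mettl14-cKO members. In restricted members, 316 of 6831 were higher (4.63%) and 250 lower (3.66%). Of the 638 genes, 463 were measured in restricted members and 242 were called higher there. Of the 587 genes, 431 were measured there and 144 were called lower, and neither set had a call in the opposite direction. Restricted members are part of the same barcodes, so shared calls are no independent support. In GABAergic cells, a separate class, 569 and 504 of these genes were measured. There 232 of the 638 (36.4%) were called higher and 4 lower, beside 5.501% and 2.364% of all genes. Of the 587, 68 (11.6%) were called lower there and 11 higher. Because members of the 2 libraries differ in subset markers, a ratio over members combines the mix of cells and the RNA per cell, which cannot be told apart.

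The genes lowest in Mettl14-cKO members included Col12a1, Trmt9b, Mpp4, Wnt5a, Necab1 and Nr2f2. Col12a1, a fibril-associated collagen (chr9:79598991-79718831), had 124 UMIs in control and 5 in Mettl14-cKO members, at 42.9 CPM (35.7–51.1) and 4.05 CPM (1.31–9.45). Its log2 ratio was −3.40 (−5.05 to −2.14). It was found in 14.98% of control members and 1.67% of Mettl14-cKO members. Necab1, a neuronal calcium-binding protein, was at 211 CPM (194–228) and 42.9 CPM (32.2–56.2), with a log2 ratio of −2.29 (−2.73 to −1.89). It was found in 54.9% and 13.7% of members, while in GABAergic cells it stood at 140 and 110 CPM. Nr2f2, an orphan nuclear receptor, was at 185 CPM (170–201) and 52.7 CPM (40.6–67.1), and in GABAergic cells at 42.0 and 38.8 CPM. It was also among the leading genes of control cluster 2.

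Wnt5a, a secreted Wnt ligand, was at 37.0 and 7.29 CPM, with a log2 ratio of −2.34. Trmt9b, Cdr1os, Nwd2 and the MHC class II gene H2-Ab1 had log2 ratios of −2.53, −2.28, −1.81 and −1.86. Each of these, and Col12a1, Necab1 and Nr2f2, was also called lower in restricted members, with Col12a1 at 63.3 CPM in the control set and without a UMI in the other. Mpp4, Pitpnm3 and Pex5l were also among the lowest genes and were abundant in rods. Mpp4 stood at 50.5 CPM in control and 9.72 CPM in Mettl14-cKO members, and at 198 and 93.2 CPM in rods. These 3 genes had under 30 UMIs in restricted members and were not measured there. The part of rod RNA in these 3 differences was not tested.

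The 12 genes highest in Mettl14-cKO members included 4 numbered zinc finger genes and Neurod6. Zfp942 was at 11.4 CPM (7.86–16.0) in control and 91.5 CPM (75.5–110) in Mettl14-cKO members, with a log2 ratio of 3.00 (2.43 to 3.61). The same gene was at 11.1 and 42.2 CPM in GABAergic cells and at 14.7 and 89.1 CPM in rods. Zfp758, Zfp958 and Zfp955a had log2 ratios of 2.24, 1.92 and 1.89 in members, and 2.22, 0.87 and 0.88 in GABAergic cells. Lcmt2, a tRNA-modifying methyltransferase homolog, was at 14.5 and 64.8 CPM in members and 9.34 and 42.8 CPM in GABAergic cells. These genes therefore had ratios above 1 in both kinds of amacrine cell, and whether the ratios differ between them was not tested.

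Of the other leading genes, Btbd17 had log2 ratios of 1.91 in members, 1.94 in GABAergic cells and 1.79 in rods. Neurod6, Pxylp1 and Spsb4 had fewer than 30 UMIs in GABAergic cells. Neurod6 (chr6:55677822-55681263) was at 12.5 CPM (8.72–17.2) and 51.9 CPM (39.9–66.2) in members, with a log2 ratio of 2.06 (1.45 to 2.69), and had no UMI in GABAergic cells of either library. Spsb4, a substrate adaptor of ubiquitin ligases, was at 33.6 CPM (27.2–40.9) and 138 CPM (118–160) in members, and at 2.33 and 2.28 CPM in GABAergic cells. It had UMIs in 12.8% and 38.7% of members. Tshz2, a zinc finger homeobox factor, was at 39.1 CPM (32.2–47.0) and 166 CPM (144–190), and was found in 13.2% and 42.0% of members. It stood at 30.3 and 49.6 CPM in GABAergic cells, where it was not called, and had called log2 ratios of 1.62 in Ebf-negative glycinergic cells and 1.49 in rods. Pxylp1 was at 13.1 and 55.9 CPM. Col6a1 was at 13.5 and 55.9 CPM in members but at 60.7 and 38.8 CPM in GABAergic cells. Clic1 and Btbd17 also ranked among the 12 highest, but they had under 30 UMIs in restricted members and were not measured there. The other 10 were called higher there too.

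**Figure D4:**
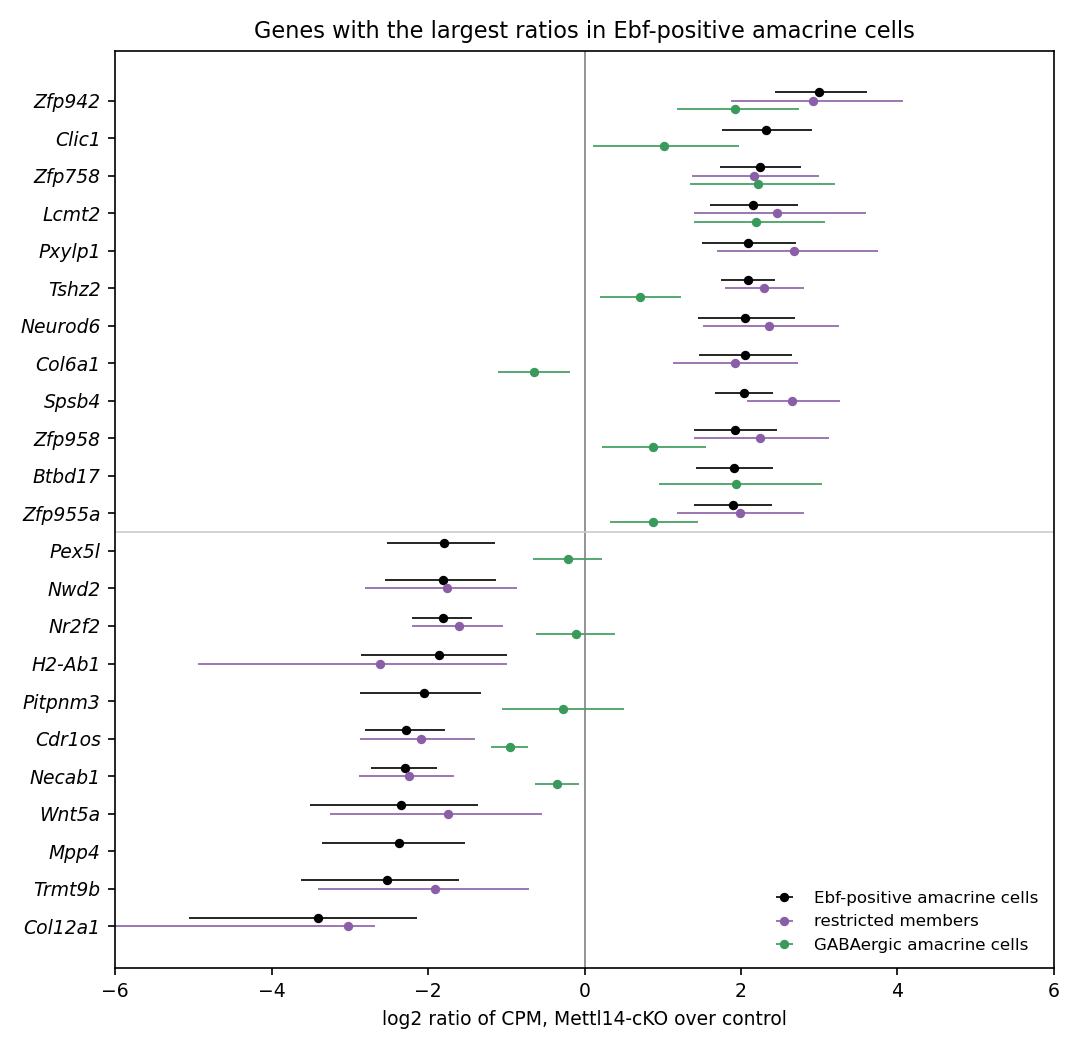
Log2 ratio of CPM, Mettl14-cKO over control (x axis), for the 12 highest and 11 of the 12 lowest genes in Ebf-positive amacrine cells, shown for all members, restricted members and GABAergic amacrine cells; bars are exact conditional 95% intervals, one that reaches the left edge runs on, and a point is left out where the gene had under 30 UMIs. Neurod6 has no GABAergic point, and Col6a1 lies at 2.05 in members and −0.65 in GABAergic cells.

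Amacrine transcription factors split by direction. Of 26 measured, 7 were called higher (26.9%, beside 6.39% of all genes) and 5 lower (19.2%, beside 5.88%), with a median log2 ratio of 0.05 against −0.05 for all genes. Nfix was called lower, at 1051 and 438 CPM, as were Tfap2c, at 96.8 and 40.5 CPM, and Prox1, at 385 and 255 CPM. Neurod6, Nhlh1, Tfap2a, Sox2, Meis2, Barhl2 and Neurod4 were higher. Meis2, a TALE homeobox factor, was at 131 and 297 CPM in members and at 245 and 352 CPM in rods, and the part of rod RNA was not tested. Neurod4, a proneural factor, was at 471 and 791 CPM. Bhlhe22 and Isl1 were lower. Nfix, Tfap2c, Neurod4, Meis2, Tfap2a and Neurod6 kept their calls in restricted members, and the other 6 were not called or not measured there. Prdm13 was not called, at 325 CPM (305–347) and 306 CPM (276–339), and neither was Nhlh2, at 671 and 456 CPM, whose ratio was short of 1.5-fold.

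Genes of transmitter release were lower or not called. Of 22 synaptic vesicle genes, none was called higher and 8 lower (36.4%, beside 5.88% of all genes), with a median log2 ratio of −0.33. In the same members 6 of the 7 rod markers were called lower, and the part of rod RNA in the vesicle genes was not tested. Syt4, a synaptotagmin, was at 246 and 108 CPM, with a log2 ratio of −1.19. Cplx3, a complexin of amacrine and photoreceptor terminals, was at 728 and 390 CPM, and rods held it at 253 and 333 CPM. Sncb, Sv2b, Syn1, Snap25 and Vamp2 were also called lower. In restricted members 1 gene of 19 was higher (5.26%, beside 4.63% of all genes) and 4 were lower (21.1%, beside 3.66%), and 3 of 6 measured rod markers were lower. Among 6 measured inhibitory transmitter genes, Slc32a1, the vesicular transporter for GABA and glycine, was called lower, at 118 CPM (106–131) and 65.6 CPM (52.1–81.6), and in 38.5% and 19.3% of members. Slc6a9 was not called, at 98.9 CPM (87.8–111) and 72.9 CPM (58.6–89.6).

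Receptor subunits were called in both directions, for glycine and GABA receptors at close to the shares over all genes. Glra3, a glycine receptor subunit that also led control cluster 5, was at 23.9 and 4.86 CPM, with a log2 ratio of −2.29. It was 1 of 14 measured glycine and GABA receptor subunits called lower (7.14%, beside 5.88% of all genes), and Gabra2 was the 1 called higher (7.14%, beside 6.39%), at 20.4 and 37.3 CPM. Of 13 glutamate receptor subunits, Grin2b and Gria1 were higher (15.4%, beside 6.39%), at 44.6 and 107 CPM and at 8.30 and 26.7 CPM, and none was lower. Gabra2 and Gria1 were not called in restricted members.

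Growth and adhesion genes of young neurons were higher where they were called. Of 24 measured cytoskeleton and growth genes, 5 were called higher (20.8%, beside 6.39% of all genes) and 0 lower (beside 5.88%), and the list's median was 0.26. Tubb3, the neuronal beta-tubulin, was at 235 and 714 CPM, with a log2 ratio of 1.61 (1.46 to 1.75), and Tubb2b was at 635 and 1867 CPM. Stmn2 was at 166 and 335 CPM, Basp1 at 1607 and 2983 CPM, and Tuba1a at 2194 and 3352 CPM. The restricted members gave the same number of calls, but Tuba1a was not among them. In GABAergic cells 5 of the 24 genes were likewise called higher (20.8%, beside 5.501% of all genes) and none lower, with a median of 0.21. Tubb3 and Tubb2b had log2 ratios of 0.66 and 0.66 there. In rods 16 of the 24 genes were called higher (66.7%, beside 9.39% of all genes). Of 31 adhesion genes, 5 were higher (16.1%, beside 6.39% of all genes) and none lower (beside 5.88%): Cdh11, Cntnap5a, Nlgn1, Dscam and Tenm3. Cdh11, a type II cadherin, was at 28.0 and 77.0 CPM, and Dscam, which acts in self-avoidance of amacrine processes, at 43.2 and 89.9 CPM.

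Genes of the m6A machinery were higher in members where called. Mettl14, whose levels are given above, was not called in members but was called lower in GABAergic cells. Of 8 writers, Rbm15, Rbm15b and Virma were called higher (37.5%, beside 6.39% of all genes) and none lower, with log2 ratios of 1.19, 0.78 and 0.74. Virma, the scaffold of the writer complex, was at 43.2 and 72.1 CPM. In GABAergic cells 4 of the 8 writers were higher (50%, beside 5.501% of all genes) and 1 lower (12.5%, beside 2.364%). Of 11 readers and erasers, Ythdf2, Igf2bp3 and Ythdc1 were higher in members (27.3%) and none lower. Ythdf2, a reader that targets transcripts for decay, was at 59.8 and 146 CPM, with a log2 ratio of 1.28 (0.98 to 1.60), and at 1.14 in GABAergic cells. Of 269 numbered Zfp zinc finger genes, 39 were called higher (14.5%) and 6 lower (2.23%) in members, beside 6.39% and 5.88% of all genes. In GABAergic cells 24 of 221 were higher (10.9%, beside 5.501% of all genes), and in rods 60 of 325 (18.5%, beside 9.39%).

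Stress lists were read against 6.39% higher and 5.88% lower calls over all genes. Of 13 p53 targets, Aen and Cdkn1a were higher (15.4%) and Plk2 lower (7.69%), and the median was −0.0014. Cdkn1a was at 21.1 and 49.4 CPM in members, and at 10.2 and 139 CPM in rods. Of 22 hypoxia and glycolysis genes, Pfkl was lower (4.55%) and none higher. Of 14 genes of the integrated stress and unfolded protein response, 1 was higher (7.14%), and of 3 interferon genes none was called. Of 10 Notch pathway genes, Hes1, Mfng and Hes6 were higher (30%, beside 6.39% of all genes) and none lower. Hes1, a repressor of neurogenesis that is abundant in glia, was at 11.1 and 48.6 CPM and led the cluster with 66.7% doublet calls in the Mettl14-cKO library. It was not called in restricted members, whereas Hes6 was. None of 76 ribosomal protein genes was called.

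**Figure D5:**
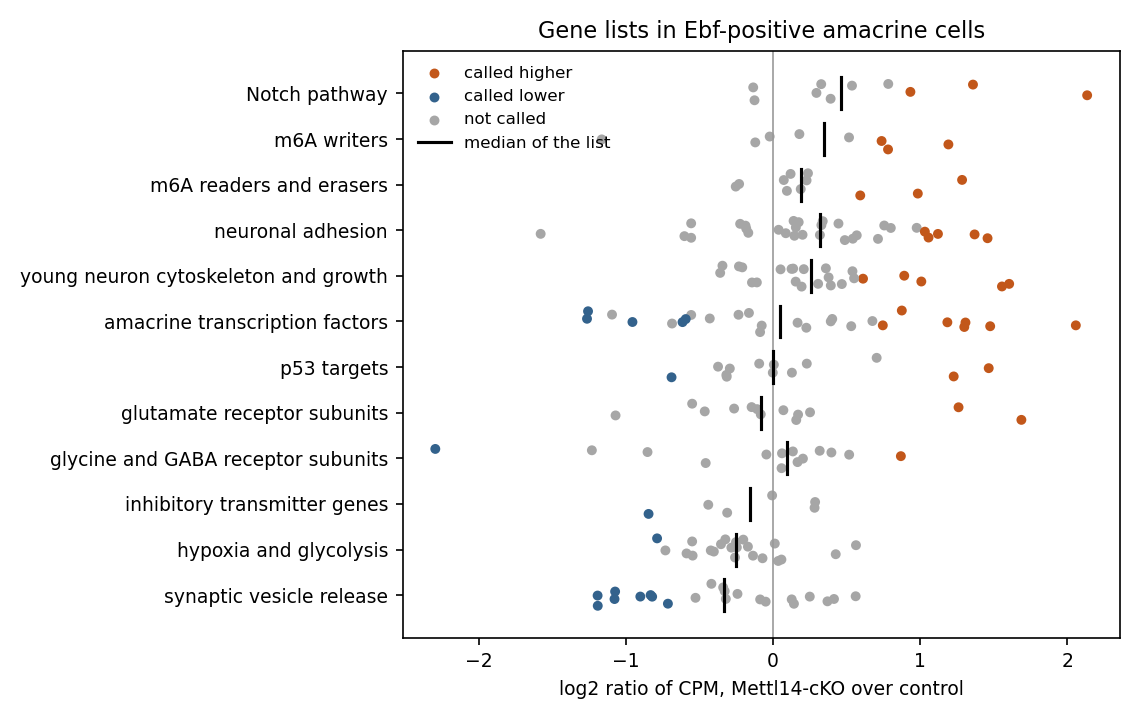
Log2 ratio of CPM, Mettl14-cKO over control (x axis), for each measured gene of 12 lists in Ebf-positive amacrine cells; colors mark calls and the black line is the median of the list. Synaptic vesicle genes have 8 calls on the lower side and none on the higher side, with a median of −0.33, and neuronal adhesion and young neuron genes have 5 higher calls each and none lower.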

How the data were processed

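Dissociated retinas of postnatal day 7 mice were profiled with the 10x Genomics 3-prime v3.1 kit, per the labels' protocols. The authors deposited whole-number UMI counts per gene and barcode for each library, and Cell Ranger 6.1.1 and the mm10 build stand in the submitters' processing notes. Every barcode in the deposited count matrices had at least 500 UMIs. Barcodes were kept with at least 1000 UMIs, 500 genes and at most 15% mitochondrial UMIs. Counts were summed over the cells of a class and divided by the class total to give CPM. Levels carry exact Poisson, ratios exact conditional and shares exact Clopper-Pearson 95% intervals. Doublets were called with Scrublet in scanpy 1.11.5 at an expected 0.8% per 1000 barcodes, and were kept in the main results. Clusters came from Leiden on 20 components of 1500 variable genes at resolution 0.8.

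With 1 library per genotype no test was made. A floor of 3 counts stood for 0 in a ratio. The 12 highest and 12 lowest called genes with at least 100 UMIs, found in 10% of members of 1 library, were named, without mitochondrial, ribosomal and unnamed gene models. So were the 12 highest and 12 lowest genes of members against each other amacrine class, ranked by the weaker library, and the 3 highest and 3 lowest of each list. Further called list members and genes leading a cluster were named after their values were seen. Class rules and gene lists (16 lists and 17 marker lists) and the members themselves were chosen with earlier results of these data known. The calls were also run on simulated counts for the members' contrast between genotypes, and 99.66% of 9770 unchanged genes stayed uncalled. Those counts held Poisson error only, the same error that the call rule assumes. They had no variation between cells or libraries, so they cannot show how often calls arise between 2 preparations. Alternatives were other thresholds, thinning, scaling, doublet removal and restricted members, the last chosen after seeing the data. Positions are from GENCODE M21. The counting strand was not given in the sources used here, so overlapping genes such as Cdr1os and Lhx1os are uncertain, and reads of near-identical Zfp genes could be split between them. A few genes are not reported here.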

Additional observations from a re-analysis of the deposited data

Results flagged for a closer look

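The Mettl14-cKO over control ratio pointed one way in members and the other way in GABAergic amacrine cells for 4 named genes, each called in both. The difference itself was not tested, with 1 library per genotype. Col6a1 had a log2 ratio of 2.05 in members and −0.65 in GABAergic cells. Opn1sw, the short-wave cone opsin, had −2.00 and 3.77, but 1 barcode held 32.6% of its UMIs in control members and another 53.3% in Mettl14-cKO members, and restricted members held 3 UMIs and 1 UMI. Pde6h, a cone phosphodiesterase subunit, had −1.31 and 1.66. Nr2e3, a rod nuclear receptor, had −0.76 and 0.77. The last 3 are photoreceptor genes, and the part of photoreceptor RNA in the amacrine barcodes was not tested.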

How the results depend on the processing

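No paired analysis was possible because each genotype had 1 library. The share of members was lower in the Mettl14-cKO library under all 10 alternatives run. The ratio of shares was 0.507 with at least 1 Ebf UMI and 0.338 among barcodes with at least 2000 UMIs, and lay within the counting interval of the main ratio under the others. The counts of called genes moved more. In place of 638 higher and 587 lower genes, 262 and 256 were called after thinning to 1500 UMIs, 345 and 282 at 2-fold, 316 and 250 in restricted members, and 143 and 116 when Tfap2b or Tfap2c was required and bipolar, glial and rod genes were limited. The last 2 settings hold fewer cells and measured fewer genes. In restricted members, 152 genes were higher than in GABAergic cells, in place of 237. Median-ratio scaling shifted all log2 ratios by 0.0097. None of the genes reported among the 12 highest and 12 lowest in Mettl14-cKO members changed direction under an alternative in which it was measured. Genes that were not called could: in restricted members the log2 ratio of Prdm13 went from −0.09 to 0.04 and that of Ebf3 from −0.16 to 0.02. Pitpnm3 and Pex5l lost their calls after thinning. The depth of the Mettl14-cKO members, with 1234369 UMIs over 300 cells, limits what could be called for genes of low level, Mettl14 included. Neurod6 had too few UMIs to be measured where Tfap2b or Tfap2c was required.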

Other observations

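Barcodes with 2 Ebf UMIs that the rule left out were counted too. Those with a second amacrine gene and a UMI of Gad1 alone among the excluded genes numbered 21 (control) and 16 (Mettl14-cKO). Those left out by another excluded gene numbered 171 (1.505% of kept barcodes, 1.29–1.75) and 208 (1.54%, 1.34–1.77). Their shares overlapped between libraries, unlike those of members. Those with no UMI of Tfap2b, Tfap2c, Slc6a9 or Pax6 numbered 184 (1.62%) and 136 (1.01%). Xist and Tsix, the measured genes of the X-inactivation and Y-linked list, were not called in members.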
